A study of Mus musculus with 13 samples.

Results

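Ribosome biogenesis genes encode the factors that transcribe ribosomal RNA, modify and cut it, and assemble it with ribosomal proteins. The 36 genes described here were chosen by name from a count table of 22048 genes, and each listed symbol matched a gene of the table. All 36 passed the filter on low counts, which kept 13831 genes. The samples were whole mouse livers: 6 controls not depleted of hepatic stellate cells (3 male, 3 female), 4 livers depleted of these cells (1 male, 3 female), and 3 livers that were not depleted and were taken 72 h after partial hepatectomy (2 male, 1 female). Stellate cells lie between hepatocytes and sinusoids and store vitamin A. Partial hepatectomy takes out liver lobes, and the lobes left behind enlarge. Strain, age, the method and timing of the depletion and whether controls had a sham operation are not given in the sources used here. The labels do not say that replicates are separate animals, so p-values measure the spread between these livers, which may in part be technical.

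Ribosomes are made mainly in the nucleolus, where RNA polymerase I transcribes the long precursor of ribosomal RNA. Small nucleolar ribonucleoprotein particles (snoRNPs) guide its chemical modification, the small subunit processome folds and cleaves it, and further factors carry the small and the large subunit towards the cytoplasm. Liver regrowth after hepatectomy is a classical setting of raised ribosome production, and the transcription factor Myc is a well-known activator of many of these genes.

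Few ribosome biogenesis genes were called in either comparison with control, and after hepatectomy the share called was near that of all genes. In stellate cell-depleted livers 1 of 36 was called, Dkc1, which was lower, whereas 33.9% of all tested genes were called in that comparison (18.9% higher, 15% lower). After hepatectomy Rrs1 was called higher and Dkc1 lower, 5.56% of the 36, against 8.42% of all tested genes (6.06% higher, 2.36% lower). Between depleted and hepatectomised livers 0 of 36 were called by edgeR, against 23.4% of all tested genes (13.3% higher and 10.1% lower in depleted livers). A call is a Benjamini-Hochberg adjusted p under 0.05 over all 13831 genes by edgeR's quasi-likelihood test. At an unadjusted p under 0.05, 3 of the 36 (8.33%) passed in the depleted, 4 (11.1%) in the hepatectomised and 3 (8.33%) in the direct comparison, against 43.6%, 24.3% and 36.1% of all tested genes. DESeq2 called 0 of the 36 in the direct comparison, too.

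The medians lay near 0. The median log2 fold change of the 36 genes was 0.04 in depleted and 0.09 in hepatectomised livers against control, and -0.07 between depleted and hepatectomised livers. Over all tested genes these medians were -0.03, -0.02 and -0.05. Scaling to library size alone moved the median of all genes to 0.08, -0.24 and 0.27, and that of the 36 genes after hepatectomy to -0.12 and in the direct comparison to 0.25. Measured from the median of all genes, the 36 genes lay at 0.07, 0.11 and -0.02 with the scaling used here (TMM) and at 0.08, 0.11 and -0.02 with library size alone. After hepatectomy 26 of the 36 genes had a log2 fold change above 0, against 6611 of all 13831 tested genes, and 13 did with library size alone. In that comparison 30 of 36 lay above the median of all genes. Without hepatectomised replicate 2 the median of the 36 genes was -0.01, which is 0.02 above the median of all genes.

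In the fitted values, the share of the 36 genes past a given fold change was below that of genes at like levels in depleted livers, and near it for 1.25-fold after hepatectomy. In depleted livers 6 of 36 (16.7%) differed from control by at least 1.25-fold in either direction and 0 by at least 1.5-fold. Of 8704 tested genes whose mean level lay in the range of the 36 genes, 46% and 24.9% passed these sizes. After hepatectomy 12 of 36 (33.3%) passed 1.25-fold and 2 (5.56%) passed 1.5-fold, compared with 36.9% and 15.8% of genes in that range. A wide interval can hide a change, so the 95% intervals were read as well. The whole interval lay within 2-fold of control for 34 of 36 genes in depleted and 31 of 36 in hepatectomised livers (94.4% and 86.1%), against 73.7% and 76.9% of genes in the same range.

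**Figure D1:**
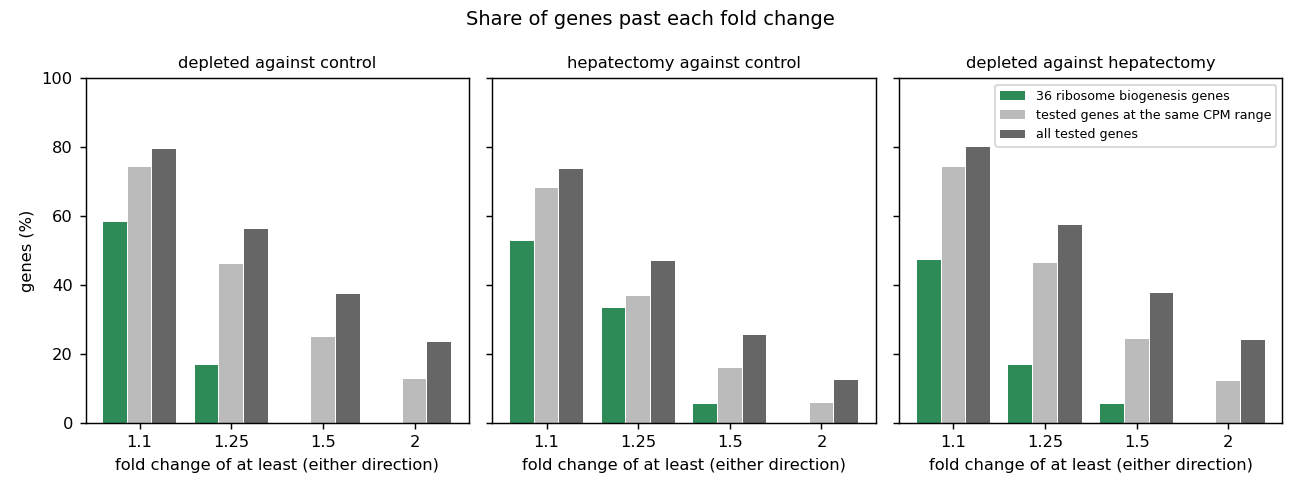
Share of genes (%) whose fitted fold change in either direction reached 1.1, 1.25, 1.5 or 2, for the 36 ribosome biogenesis genes (green), the 8704 tested genes in the same CPM range (light grey) and all 13831 tested genes (dark grey), in each of 3 comparisons. In depleted livers 16.7% of the 36 genes reached 1.25-fold, against 46% of genes in the same range, and no green bar stands at 2-fold in any panel.

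The libraries behind these values held 35360991 to 51008737 counts, and each level is given as CPM, the reads of a gene scaled to a common library size by TMM. Stellate cell markers checked the depletion: 10 of 10 were called lower, and their summed level was 202 to 566 CPM in controls, 266 to 448 after hepatectomy and 6.36 to 53.8 in depleted livers. Depleted replicate 4 was the one at 53.8, and the other 3 lay between 6.36 and 9.66. Other cells changed alongside. In depleted livers 13 of 14 myeloid and 10 of 10 lymphocyte markers were called higher, with summed myeloid levels of 1990 to 3640 CPM against 73.5 to 505 in controls and summed lymphocyte levels of 46.5 to 95.4 against 4.32 to 8.17. The myeloid marker not called, Clec4f, went the other way, with a log2 fold change of -3. It had 0.236, 2.17, 3.44 and 69.5 CPM in depleted replicates 1 to 4, against 20.3 to 165 in controls. After hepatectomy 3 of 14 myeloid markers were called higher, with a list median of 0.08, as were 2 of 5 cholangiocyte markers, with a median of 1.42. The summed myeloid level after hepatectomy, 1070 to 2990 CPM, was mostly that of Lcn2 alone, at 2510, 2230 and 827 CPM in replicates 1 to 3. Lcn2 was at 3 to 16.9 CPM in controls and 642 to 1590 CPM in depleted livers. Of 9 hepatocyte markers 2 were called lower in depleted and 0 in hepatectomised livers. The part of cell composition in the results below was not tested, and in whole liver fewer cells of a type and less RNA per cell cannot be told apart. Scaling to library size alone changed the balance of all calls from 2614 higher and 2078 lower to 2884 and 1471 in depleted livers, from 838 and 326 to 626 and 1566 after hepatectomy, and from 1837 and 1399 to 3102 and 610 in the direct comparison.

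Start-site sequences of the members were read from RefSeq (GRCm38.p6), since the E-box CACGTG is the classical site of Myc and its partner Max and Myc itself was called higher in depleted livers (below). Windows of 300 bases, from 250 before to 50 after the annotated start, were at hand for 31 of the 36 genes. The E-box, the same on both strands, occurred in 7 of the 31 (22.6%), compared with 8.09% of all 27025 windows and 11.3% of the 10826 windows of tested genes. Of these 7, 6 held it after the start. In the 250 bases before the start the share was 1 of 31 (3.23%), against 6.86% of all windows and 9.48% of those of tested genes, so the higher share came from the 50 bases after the start. The 7 sites are shown with up to 12 flanking bases on each side, 5′ to 3′ on the strand of the gene, with the E-box in capitals.
Ltv1, chr10:13193092-13193121, minus strand, 29 bases after the start: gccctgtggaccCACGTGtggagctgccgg
Mybbp1a, chr11:72441355-72441376, plus strand, 41 after: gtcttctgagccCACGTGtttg
Nop2, chr6:125131811-125131840, plus strand, 60 before: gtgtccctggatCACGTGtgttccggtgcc
Pes1, chr11:3963965-3963994, plus strand, 3 after: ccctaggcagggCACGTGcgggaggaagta
Tsr1, chr11:74898092-74898121, plus strand, 25 after: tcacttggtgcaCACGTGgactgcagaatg
Utp20, chr10:88826765-88826789, minus strand, 38 after: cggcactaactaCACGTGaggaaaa
Wdr43, chr17:71616220-71616249, plus strand, 18 after: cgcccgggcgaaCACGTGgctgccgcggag

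These 7 genes were called in 0 of the 3 comparisons. Their log2 fold changes in depleted livers ran from -0.20 (Utp20) to 0.35 (Tsr1) with a median of 0.01, next to a median of 0.04 for the 24 genes whose window lacks the letters. After hepatectomy the medians were 0.07 and 0.17. Searched on both strands in the 300 bases, the ETS motif CCGGAAG was in 8 of 31 windows (25.8%, against 9.93% of all and 18.6% of tested genes), the CCAAT box in 10 (32.3%, against 41.1% and 42.7%) and the palindromic NRF1 motif in 0 (1.07% and 2.13%). A match is a description of letters in a window and not a binding site.

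RNA polymerase I is represented by its largest subunits, Polr1a (chromosome 6, 71909053 to 71984935, GRCm38 as all gene coordinates below) and Polr1b (chromosome 2, 129100995 to 129126594). Polr1a was measured at 16.6 to 21.9 CPM in controls (median 19.9), at 21.9, 28.7, 21.9 and 20.8 CPM in depleted replicates 1 to 4 and at 14.7, 24.6 and 24.9 CPM in hepatectomised replicates 1 to 3. Depleted replicate 2 stood above every other liver, and the groups overlapped. Polr1b was at 10.4 to 15.8 CPM in controls (median 13.7), at 11.8, 12.4, 10.6 and 13 CPM in depleted livers and at 9.88, 12.7 and 13.5 CPM after hepatectomy. Hepatectomised replicate 1 had the lowest level of both genes among all 13 livers. In depleted livers the log2 fold change was 0.22 for Polr1a (95% interval -0.12 to 0.56, adjusted p = 0.314) and -0.21 for Polr1b (-0.53 to 0.11, adjusted p = 0.303). After hepatectomy these were 0.16 (-0.21 to 0.53) and -0.17 (-0.52 to 0.17) for the same genes, with adjusted p-values of 0.599 and 0.535.

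Box C/D snoRNPs carry out methylation of ribosomal RNA and, in the form that holds Rrp9 and the U3 RNA, early cleavage. Fbl encodes the methyltransferase, Nop56 and Nop58 its scaffold proteins. None of the 4 was called in any comparison. Nop58 (chromosome 1, 59684971 to 59719044) was at 16.2 to 22.2 CPM in controls (median 17.1), at 18.4, 19.5, 20.8 and 22.6 CPM in depleted livers and at 16.6, 43.2 and 25.9 CPM after hepatectomy. Hepatectomised replicates 2 and 3 lay above all controls and replicate 1 among the lowest of them. The log2 fold change after hepatectomy was 0.66 ± 0.23 (SE, 95% interval 0.16 to 1.17, edgeR adjusted p = 0.102), and it was 0.20 without replicate 2 (adjusted p = 0.573). Without replicate 1 it was 0.92 with an adjusted p of 0.0171, which passed.

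Rrp9 (chromosome 9, 106475963 to 106485424) had 6.9 to 10.6 CPM in controls (median 8.83), 5.55, 6.65, 6.55 and 9.31 CPM in depleted livers and 5.06, 7.47 and 7.86 CPM after hepatectomy. Depleted replicates 1, 2 and 3 and hepatectomised replicate 1 lay below every control, and depleted replicate 4 lay inside the control range. Its log2 fold changes were -0.30 (-0.75 to 0.16) and -0.37 (-0.85 to 0.11). Fbl (chromosome 7, 28169710 to 28179269) was the highest of the 4 per kilobase of exon bases, at 12.9 CPM per kb in controls. It was at 12.3 to 18.2 CPM in controls (median 14.7), 11.5, 12.5, 16 and 19.7 CPM in depleted and 14.8, 19.6 and 14.4 CPM in hepatectomised livers. The groups overlapped throughout, with a log2 fold change of 0.08 in each comparison with control. Nop56 lay at 0.08 in depleted (-0.40 to 0.56) and 0.21 in hepatectomised livers (-0.29 to 0.72).

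Box H/ACA snoRNPs convert uridine to pseudouridine, and their proteins also belong to telomerase. Dkc1, the gene of the pseudouridine synthase dyskerin, was the one member called in both comparisons with control, which share their control livers. Dkc1 (chromosome X, 75095854 to 75109777) was at 17.5 to 22.7 CPM in controls (median 20.1), with a mean of 20.1 ± 1.71 (SD, n = 6). Depleted replicates 1 to 4 had 17.7, 15.1, 13.1 and 15.8 CPM, a mean of 15.4 ± 1.91 (SD, n = 4). Depleted replicate 1 lay just inside the control range and the other 3 below it. Hepatectomised replicates had 14.2, 15.9 and 11.8 CPM, all below the lowest control. That left Dkc1 as 1 of 36 genes with a hepatectomised range wholly below the controls, compared with 6.25% of all tested genes.

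In depleted livers Dkc1 fell by a log2 fold change of -0.40 ± 0.13 (SE, 95% interval -0.68 to -0.12, edgeR adjusted p = 0.0283), a level of 0.758 of control. After hepatectomy its change was -0.50 ± 0.14 (SE, -0.81 to -0.20, adjusted p = 0.0453), a level of 0.706 of control. Neither call was firm. The first was lost without control replicate 4 (-0.36, adjusted p = 0.0671), control replicate 5 (-0.40, 0.0541), depleted replicate 2 (-0.38, 0.0648) or depleted replicate 3 (-0.30, 0.171), in females alone (-0.37, 0.109), with library size alone (-0.30, 0.147) and with the replicate number as a block (-0.41, 0.084). The second was lost with any single library of the 9 left out, with adjusted p-values from 0.0513 to 0.245 and log2 fold changes from -0.62 to -0.30, in males alone (-0.35, 0.376), with the replicate block (-0.49, 0.138), with the 2 groups alone (-0.50, 0.0556) and with no filter on low counts (-0.49, 0.0611). The direction was negative in each of these fits. Dkc1 holds a CCAAT box 26 bases after its RefSeq start, shown in capitals as the 1 motif match of the member called in both comparisons (chrX:75095867-75095895, plus strand).
Dkc1: tggccgaatcagCCAATgggattgagtag

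The other 3 proteins of the particle were not called. Nop10 (chromosome 2, 112261926 to 112263269) was at 26.5 to 53.6 CPM in controls (median 31.8), with 22.9, 26.1, 27 and 34.9 CPM in depleted and 44.7, 42.4 and 30.1 CPM in hepatectomised livers. Control replicate 6 was the highest of all 13, and depleted replicates 1 and 2 the lowest. Nhp2 was among the most variable members, from 8.76 to 20.4 CPM in controls, 6.28 to 16.1 in depleted and 14.1 to 31.1 CPM after hepatectomy. Between depleted and hepatectomised livers its log2 fold change was -0.72 (-1.43 to -0.01, adjusted p = 0.133), and without depleted replicate 4 it was -1.04 with an adjusted p of 0.00865, which passed. It also passed with the replicate block (-0.93, edgeR adjusted p = 0.0278). Gar1 lay at 0.13 in depleted (-0.43 to 0.69) and 0.30 in hepatectomised livers (-0.30 to 0.89), where replicate 2 alone reached 9.97 CPM against 3.91 and 6.61.

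**Figure D2:**
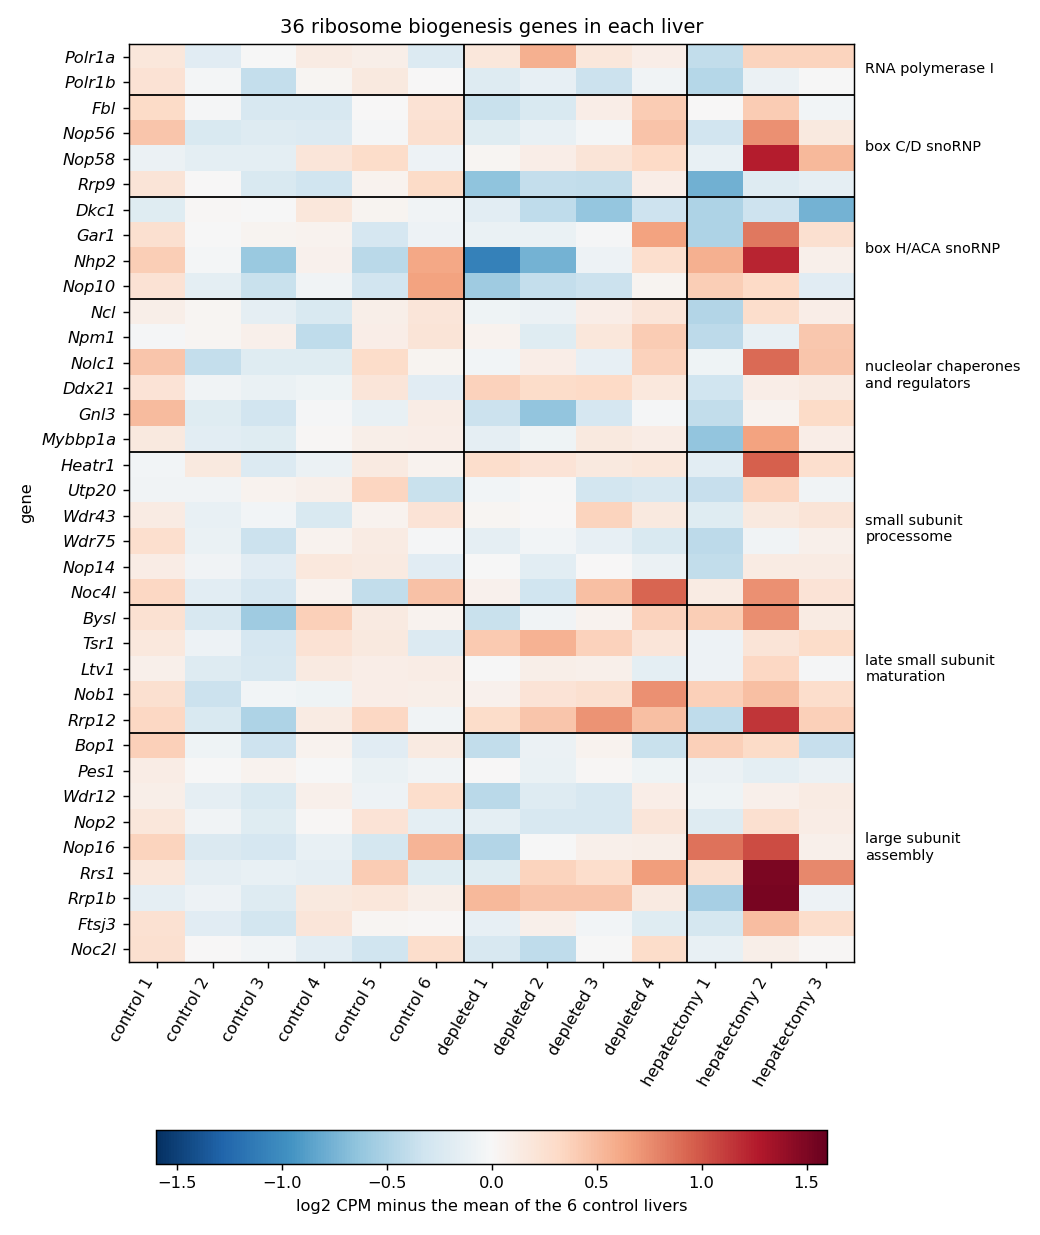
Log2 CPM of each of the 36 genes (vertical axis, grouped by role) in each of the 13 livers (horizontal axis), as the difference from the mean of the 6 control livers, with red above and blue below. Hepatectomised replicate 2 stands out in red for Nop58, Nhp2, Rrs1 and Rrp1b, while Dkc1 is blue in every depleted and hepatectomised liver.

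Nucleolar chaperones and regulators include the most abundant members. Ncl encodes nucleolin and Npm1 nucleophosmin, both histone and RNA chaperones, Nolc1 a snoRNP chaperone, Ddx21 an RNA helicase that couples RNA polymerase I to processing, Gnl3 the GTPase nucleostemin and Mybbp1a a nucleolar repressor of transcription. Of the 6, 0 were called in any comparison. Npm1 had the highest level per kilobase of exon bases of all 36 genes, at 45.9 CPM per kb in controls, ahead of Nop10 (31.7), Ncl (22.3) and Gnl3 (18.1). This is the order of control means, with SDs of 6.19 for Npm1 and 9.22 for Nop10, and the control ranges of this pair overlapped. The order depends on the length used, which counts all exon bases of a gene, 10188 for Ncl and 2665 for Npm1. In CPM not divided by length Ncl was above Npm1, at control means of 227 and 122. Npm1 (chromosome 11, 33152287 to 33163206) was at 91.6 to 140 CPM in controls (median 126), at 126, 106, 137 and 161 CPM in depleted and at 90.9, 112 and 164 CPM in hepatectomised livers. Its log2 fold change after hepatectomy was 0 (-0.42 to 0.42), and the 3 livers spanned the whole range of the controls and more.

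Ddx21 (chromosome 10, 62580251 to 62602281) was the member of this role closest to a call in depleted livers. Controls had 39.3 to 51.8 CPM (median 42.8), depleted livers 57.6, 54.4, 55.8 and 50.3 CPM and hepatectomised livers 35.8, 48.3 and 49.6 CPM. Depleted replicates 1, 2 and 3 lay above all controls and replicate 4 inside their range, and all 4 lay above the 3 hepatectomised livers. It was the 1 gene of 36 with a depleted range wholly above the hepatectomised range, compared with 18.1% of all tested genes. The log2 fold change against control was 0.27 (0 to 0.54, adjusted p = 0.111). Nolc1 (chromosome 19, 46075863 to 46085530) had 19.3 to 34 CPM in controls (median 23.8), 24.2, 27, 23 and 32.4 CPM in depleted and 23.8, 46.9 and 34 CPM in hepatectomised livers. Replicate 2 after hepatectomy was again the highest, with a log2 fold change for the group of 0.45 (-0.04 to 0.94, adjusted p = 0.242). In depleted livers Ncl lay at 0.06, Mybbp1a at 0.04 and Gnl3 at -0.30 (-0.72 to 0.11). After hepatectomy they lay at -0.02, 0.11 and -0.01.

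The small subunit processome is the large particle that assembles on the 5′ part of the precursor. Of its 6 members here, Heatr1, Utp20, Wdr43, Wdr75, Nop14 and Noc4l, 0 were called. Heatr1 (chromosome 13, 12395027 to 12440289), a scaffold also needed for transcription by RNA polymerase I, had 14.5 to 18.7 CPM in controls (median 16.9), 20.5, 19.6, 18.8 and 19.2 CPM in depleted and 15, 32.6 and 20.2 CPM in hepatectomised livers. All 4 depleted livers lay above the highest control, by a small margin, which makes it the 1 gene of 36 with a depleted range wholly above the controls (16.5% of all tested genes, and 11.9% wholly below). The fitted log2 fold change was only 0.23 (-0.16 to 0.63, adjusted p = 0.353). After hepatectomy it was 0.40 (-0.02 to 0.82), 0.05 without replicate 2 and 0.63 without replicate 1 (adjusted p = 0.0385).

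Noc4l (chromosome 5, 110648418 to 110653417), of the complex that exports the early small subunit, had 7.39 to 13.5 CPM in controls (median 9.39), 10.2, 7.79, 13.6 and 18.6 CPM in depleted and 10.8, 16.3 and 11.4 CPM in hepatectomised livers. Depleted replicate 4 was the highest, and the log2 fold change of 0.42 had an interval of -0.10 to 0.95. Nop14 (chromosome 5, 34638536 to 34660148), its partner and the most abundant processome gene per kilobase (7.47 CPM per kb in controls), had 17.8 to 22.7 CPM in controls (median 20.7), 20.2, 18.1, 20.3 and 19 CPM in depleted and 15.4, 22.3 and 22.2 CPM in hepatectomised livers. Log2 fold changes of -0.09 (-0.37 to 0.20) and -0.02 (-0.33 to 0.29) left its fold change in depleted livers no lower than 0.771 within the 95% interval, and no lower than 0.796 after hepatectomy. Utp20 lay at -0.20, Wdr75 at -0.15 and Wdr43 at 0.16 in depleted livers and at 0.04, -0.12 and 0.05 after hepatectomy.

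Late small subunit maturation covers export and the last cuts in the cytoplasm: Nob1 is the endonuclease that makes the mature end of the RNA, Bysl, Tsr1 and Ltv1 are assembly factors that leave before it, and Rrp12 is an export factor. All 5 log2 fold changes were above 0 in both comparisons with control, from 0.01 to 0.49 in depleted and from 0.07 to 0.46 in hepatectomised livers, and 0 of 5 were called. Of all 13831 tested genes 6596 and 6611 were above 0. Of 34 further small subunit factors (below) only 9 and 11 were. With library size alone Tsr1 (-0.07) and Ltv1 (-0.15) lay below 0 after hepatectomy, though above the median of all genes, which that scaling moved to -0.24. The signs of the smallest values depended on single livers. With each library left out, Bysl ran from -0.12 to 0.15 and Ltv1 from -0.05 to 0.06 in depleted livers. After hepatectomy Ltv1 was at -0.06 and Rrp12 at 0 without replicate 2. Tsr1 (chromosome 11, 74898071 to 74909342) came closest in depleted livers. Controls had 13.1 to 18.5 CPM (median 16.2), depleted livers 20.9, 23.1, 20.3 and 17.9 CPM and hepatectomised livers 14.8, 18.1 and 19.3 CPM. Depleted replicates 1, 2 and 3 lay above all controls and replicate 4 within them. The log2 fold change was 0.35 (0.05 to 0.65, adjusted p = 0.0671), and it passed with no sex term in the model (0.37, adjusted p = 0.0432), with library size alone (0.45, 0.0383), by DESeq2 (0.36, 0.0465) and without depleted replicate 4 (0.42, 0.0362). Srr overlaps 32.3% of the exon bases of Tsr1 on the opposite strand, and whether counting used strand is not given in the sources used here.

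Nob1 (chromosome 8, 107412486 to 107425051) had 5.02 to 7.66 CPM in controls (median 6.54), 6.71, 7.48, 7.65 and 10.7 CPM in depleted and 8.35, 8.93 and 7.78 CPM in hepatectomised livers. It was the 1 gene of 36 with a hepatectomised range wholly above the controls, compared with 7.41% of all tested genes. The margin was narrow, and the log2 fold change was 0.37 (-0.04 to 0.77, adjusted p = 0.251). Ltv1 (chromosome 10, 13178140 to 13193168), the highest of the role per kilobase at 8.98 CPM per kb, had 13.2 to 17.4 CPM in controls (median 16.8), 15.7, 16.8, 16.6 and 14.1 CPM in depleted and 14.9, 19.8 and 15.5 CPM in hepatectomised livers, with log2 fold changes of 0.01 (-0.27 to 0.30) and 0.07 (-0.24 to 0.38). Bysl lay at 0.02 and 0.39 and Rrp12 at 0.49 (-0.10 to 1.08) and 0.46 (-0.19 to 1.10). Ccnd3 overlaps 9.37% of the exon bases of Bysl on the opposite strand.

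**Figure D3:**
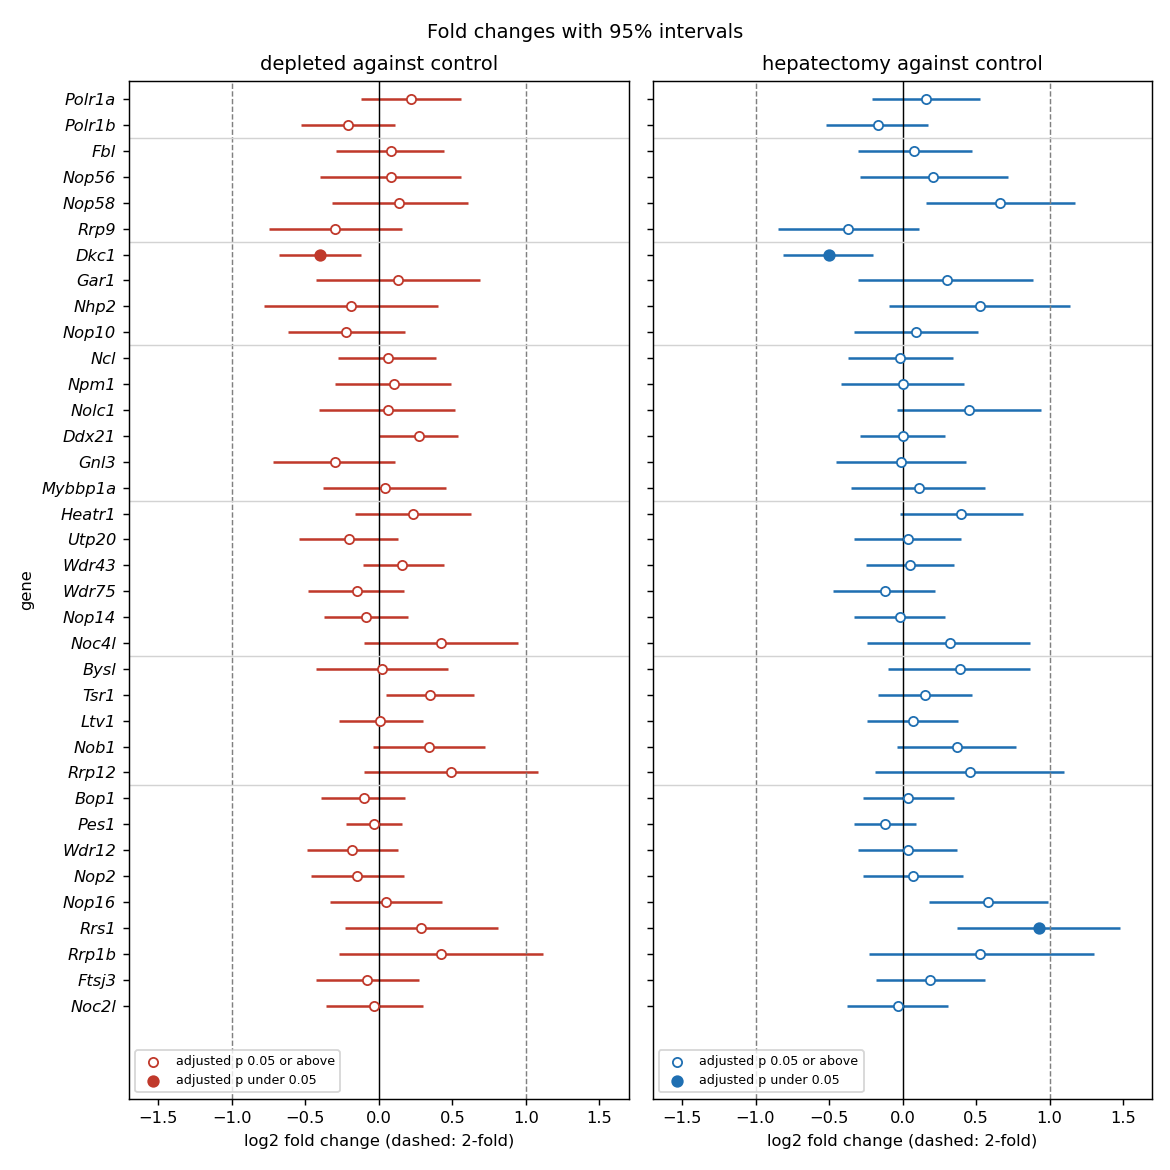
Log2 fold change (horizontal axis) of each of the 36 genes in depleted (left) and hepatectomised (right) livers against control, with lines for the 95% interval, filled points for an adjusted p under 0.05 and dashed lines at 2-fold. Dkc1 is filled on the left at -0.40, and Dkc1 (-0.50) and Rrs1 (0.93) are filled on the right.

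Large subunit assembly includes the complex of Pes1, Bop1 and Wdr12, the methyltransferase genes Nop2 and Ftsj3, and the factors Nop16, Rrs1, Rrp1b and Noc2l. Of these 9 genes 1 was called, Rrs1 after hepatectomy. Rrs1 helps to place the 5S ribonucleoprotein into the precursor of the large subunit. Rrs1 (chromosome 1, 9545408 to 9547455) was at 12 to 18.2 CPM in controls (median 12.5), a mean of 13.8 ± 2.46 (SD, n = 6), and at 12, 17.5, 16.6 and 21.9 CPM in depleted livers. Hepatectomised replicates 1 to 3 had 16.4, 39 and 23.4 CPM. Replicates 2 and 3 lay above every control and replicate 1 below the highest of them. The rise was a log2 fold change of 0.93 ± 0.26 (SE, 95% interval 0.37 to 1.48, edgeR adjusted p = 0.0426), which is 1.90-fold.

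The call of Rrs1 depended on hepatectomised replicate 2. Without that liver its log2 fold change was 0.51 with an adjusted p of 0.259. It also missed the threshold without hepatectomised replicate 3 (1.05, 0.0685) or any control other than replicate 5 (0.88 to 0.98, adjusted p from 0.0591 to 0.0925), in a fit of the 2 groups alone (0.94, 0.0545), with limma-voom (0.85, 0.0598), with library size alone (0.72, 0.0931), with the replicate block (0.95, 0.0936) and in males alone (1.05, 0.15). All of these fits gave a higher level after hepatectomy. In depleted livers Rrs1 was not called, at 0.29 (-0.23 to 0.81, adjusted p = 0.384).

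Nop16 (chromosome 13, 54584185 to 54590090), whose values are given in every liver because they were seen to come next to those of Rrs1, was at 15.2 to 26.8 CPM in controls (median 16.3), at 13.3, 18.3, 19.5 and 19.7 CPM in depleted and at 33.9, 38.3 and 19.5 CPM in hepatectomised livers. Hepatectomised replicates 1 and 2 lay above all controls and replicate 3 among them, unlike Rrs1, where replicate 1 was the lowest. Its log2 fold change after hepatectomy was 0.58 (0.18 to 0.99, adjusted p = 0.0754), which DESeq2 called (0.59, adjusted p = 0.0319). Rrp1b (chromosome 17, 32036100 to 32062865), a nucleolar protein that binds a phosphatase, was the lowest member per kilobase at 0.676 CPM per kb. It had 4.49 to 5.87 CPM in controls (median 5.22), 7.41, 7.06, 7.06 and 5.75 CPM in depleted and 3.59, 14.9 and 4.91 CPM in hepatectomised livers. Hepatectomised replicate 2 lay far above the controls and replicate 1 below all of them, and the log2 fold change turned from 0.53 (-0.23 to 1.30) to -0.30 without replicate 2. In depleted livers it was 0.42 (-0.27 to 1.12), with 3 of 4 livers above all controls.

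Noc2l (chromosome 4, 156236010 to 156247616), the most abundant of the role per kilobase in controls at 11.2 CPM per kb, had 25.5 to 38.7 CPM in controls (median 31.3), 26.5, 24.1, 31.5 and 38.8 CPM in depleted and 29.3, 34.1 and 32.1 CPM in hepatectomised livers. Both log2 fold changes were -0.03, and Samd11 overlaps 20.9% of its exon bases on the opposite strand. Pes1 was the steadiest of all 36 genes in controls and after hepatectomy, with coefficients of variation of 5.75% and 2.75%, and its intervals of -0.22 to 0.16 and -0.33 to 0.09 were the narrowest in each comparison with control. Its partners Bop1 and Wdr12 lay at -0.10 and -0.18 in depleted and at 0.04 and 0.04 in hepatectomised livers. Nop2 (-0.15 and 0.07) and Ftsj3 (-0.08 and 0.19) were not called either.

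**Figure D4:**
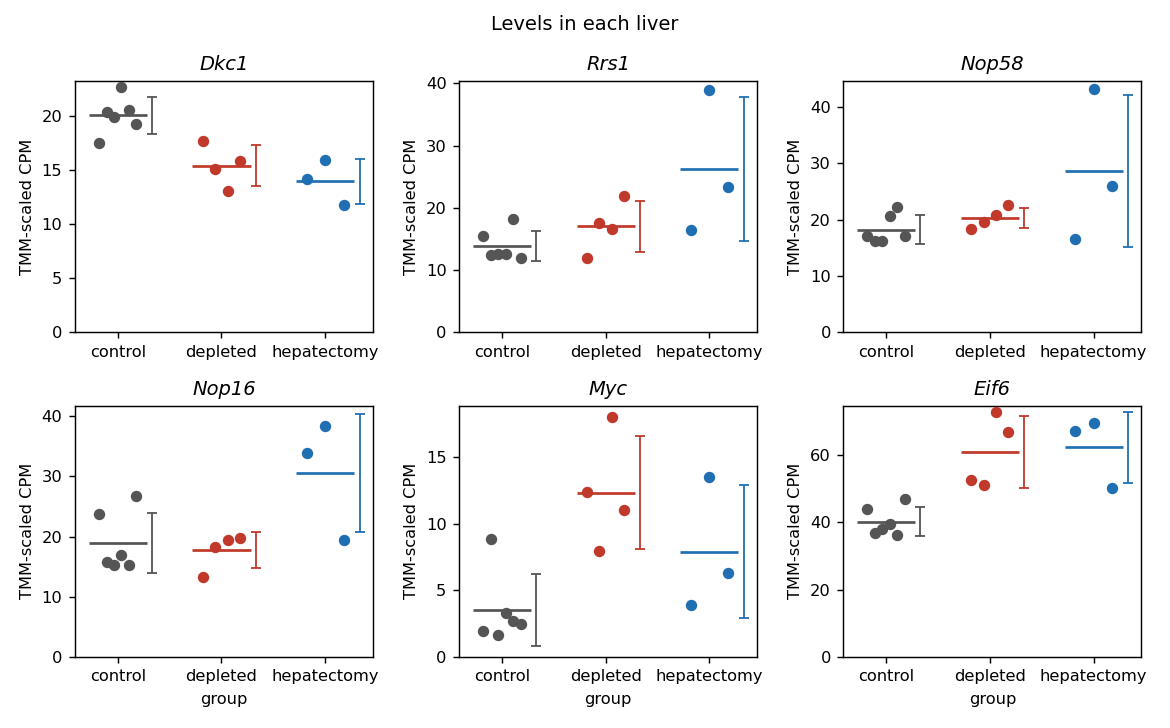
TMM-scaled CPM (vertical axes, from 0) of Dkc1, Rrs1, Nop58, Nop16, Myc and Eif6 in each liver by group, with points for livers, horizontal lines for means and bars for 1 SD. Dkc1 lies at 11.8 to 15.9 CPM after hepatectomy, below all controls, and for Rrs1, Nop58 and Myc hepatectomised replicate 2 is the highest of its group.

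The 3 hepatectomised livers differed from each other in these genes, and whether they did so more than livers of the other groups was not tested. The mean log2 CPM of the 36 genes was 4.10, 4.71 and 4.37 in replicates 1 to 3, against 4.04 to 4.44 in controls and 4.13 to 4.42 in depleted livers. Replicate 2 thus lay above every control, replicate 1 near the lowest control and replicate 3 inside the range. Replicate 2 was the highest of the 3 livers for 23 genes and replicate 1 the lowest for 27. In the depleted group replicate 4 was the highest for 20 genes and replicate 1 the lowest for 15. Such counts were not made over all tested genes. The median coefficient of variation of the 36 genes was 23.5% after hepatectomy, against 16.8% for genes in the same CPM range of those livers. In controls it was 14% against 16.9%, and in depleted livers 15.2% against 16.5%. Cell cycle genes had a summed level of 299, 1050 and 162 CPM in hepatectomised replicates 1 to 3, again highest in replicate 2 but lowest in replicate 3. All 15 cell cycle genes were called higher after hepatectomy and 10 of 15 in depleted livers, where their sums were 196, 121, 164 and 281 CPM against 44.8 to 104 in controls. Summed endothelial markers were low in hepatectomised replicate 2, at 99.7 CPM against 297 and 244, and in control replicate 6, at 103 CPM against 316 to 462 in the other controls. The part of these differences between livers in the member results was not tested.

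**Figure D5:**
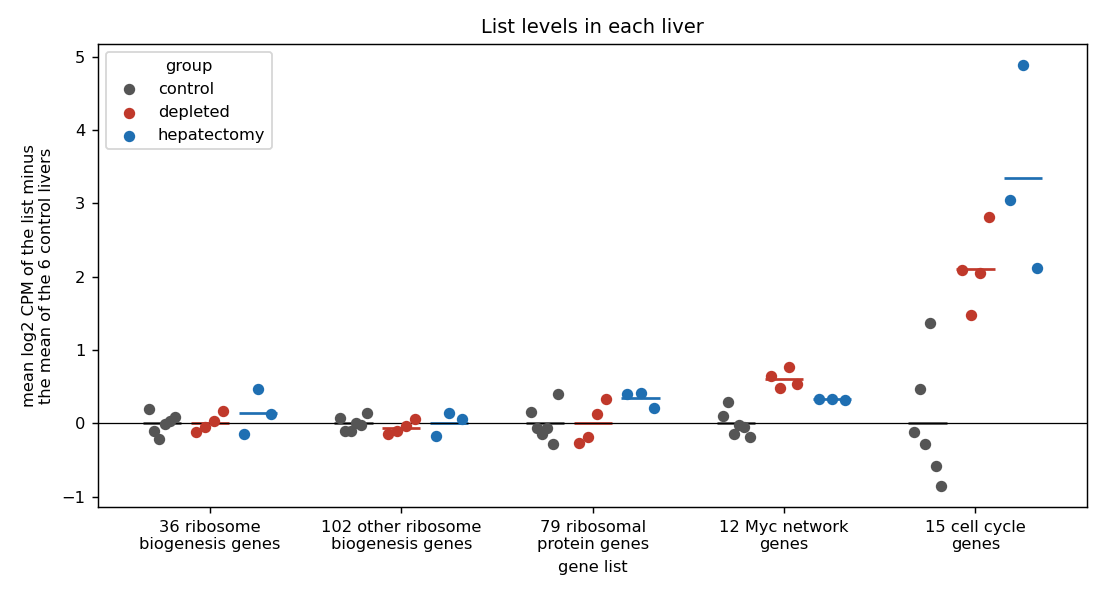
Mean log2 CPM of each gene list (horizontal axis) in each liver, as the difference from the mean of the 6 control livers, with points for livers and lines for group means. For the 36 ribosome biogenesis genes hepatectomised replicate 2 lies above every control and the other 2 hepatectomised livers within the control range, whereas every depleted and hepatectomised liver lies above the controls' mean for cell cycle genes.

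A further 102 factors of ribosome biogenesis, in 4 lists (13 of RNA polymerase I, 34 of the small subunit, 42 of the large subunit and 13 of the RNA exosome), were read in the same fit. In depleted livers 3 were called higher and 7 lower, and after hepatectomy 1 higher and 0 lower, with medians of -0.05 and -0.01. Of all tested genes 18.9% were called higher and 15% lower in depleted livers, and 6.06% and 2.36% after hepatectomy. The 4 lists differed in depleted livers, with medians of 0.04, -0.22, -0.04 and 0.07 in the order named. In the small subunit list 25 of 34 genes lay below 0, against 7235 of all 13831, with 0 called higher and 3 lower. Its mean log2 CPM was 4.11 to 4.26 in depleted livers and 4.24 to 4.47 in controls. Differences between lists were not tested. Of the genes called in depleted livers, the largest rises were Mphosph6 (0.79, adjusted p = 0.0431), an exosome cofactor, Taf1c (0.78, 0.0262), of the factor that selects the promoter of ribosomal RNA genes, and Eif6 (0.66 ± 0.11 SE, 0.000625), which keeps the large subunit from joining the small one too early. The largest falls among called genes were Rcl1 (-0.78 ± 0.16 SE, 0.00257), a processome protein, Utp3 (-0.44, 0.024) and Rrn3 (-0.41, 0.041), the initiation factor of RNA polymerase I. Mphosph6 and Taf1c were at low levels, 2.49 and 1.61 CPM in controls.

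Eif6 and Rcl1 were the 2 of these 10 that passed in all 19 alternative fits of the depleted comparison, Eif6 at 0.59 to 0.78 and Rcl1 at -0.95 to -0.67. Mphosph6 missed in 10, Rrn3 in 9, Utp3 in 6 and Taf1c in 5 of them. Eif6 had 36.2 to 46.8 CPM in controls, 52.7, 51.1, 72.8 and 66.8 CPM in depleted and 67, 69.6 and 50.1 CPM in hepatectomised livers. All 7 depleted and hepatectomised livers lay above all controls. After hepatectomy its log2 fold change was 0.57 ± 0.12 (SE, adjusted p = 0.0133), and it missed the threshold in 3 of 18 alternative fits. Rcl1 had 116 to 189 CPM in controls and 80.3, 69.2, 119 and 61.2 CPM in depleted livers, where the male replicate 3 was the highest. After hepatectomy it had 148, 184 and 185 CPM, with a log2 fold change of 0.17 (-0.20 to 0.54).

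Genes of the Myc network, which encode Myc and the proteins that pair with or oppose it, were called more widely in depleted livers than the 1 of 36 above. Of 12 network genes, 7 were called higher and 1 lower, against 18.9% and 15% of all tested genes, with a median log2 fold change of 0.74. Those higher were Mxd3 (2.69), Myc (2.01), Mlxip (1.68), Mxd1 (1.11), Mycl (0.90), Max (0.87) and Mnt (0.60), and Mxi1 was lower (-0.37). The higher genes thus included the activators Myc and Mycl, the common partner Max and the opponents Mxd1, Mxd3 and Mnt, while the opponent Mxi1 was lower. The 4 network genes not called all had values below 0, at -1 for Mycn, -0.39 for Mxd4, -0.29 for Mga and -0.10 for Mlx. Myc had 1.65 to 8.87 CPM in controls, where replicate 2 stood at 8.87 and the next at 3.28. It had 12.4, 7.91, 18 and 11 CPM in depleted livers, and depleted replicate 2 overlapped that control. The change of Myc was 2.01 ± 0.44 (SE, 1.05 to 2.97, adjusted p = 0.00383), or 4.03-fold, and it passed in all 19 alternative fits at 1.82 to 2.34. Mnt missed in 9 of the 19, Mycl and Mxi1 in 3 each, and the other 5 of the 8 in 0.

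After hepatectomy 1 of 12 network genes (8.33%) was called, near the 8.42% of all tested genes (6.06% higher, 2.36% lower). This gene was Mxd3, which was higher (3.12 ± 0.68 SE, edgeR adjusted p = 0.0156) and missed the threshold in 2 of 18 alternative fits. Mxd3 was at 0.06 to 0.568 CPM in controls, near the 0.0588 to 0.0848 CPM that 3 counts are worth in these libraries. Myc had 3.88, 13.5 and 6.31 CPM in hepatectomised replicates 1 to 3, the highest again in replicate 2. Its log2 fold change of 1.10 (0.09 to 2.11) had an adjusted p of 0.171. It ran from 0.68 to 1.62 over 18 alternative fits and passed in 1 of them, without control replicate 2 (1.62, edgeR adjusted p = 0.0398). Whether the network genes and the 36 genes responded differently was not tested as a difference between lists.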

How the data were processed

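RNA of 13 whole mouse livers was extracted with TRIzol and made into libraries with a stranded mRNA kit, per the labels' protocols. The authors deposited raw counts per gene. STAR 2.7.1a, SAMtools 1.15.1, featureCounts 1.6.4 and the build mm10 are named per the submitters' processing notes, and their settings, the annotation and the use of strand are not given in the sources used here. Symbols were matched for 21741 of 22048 gene IDs. The members and lists were chosen with earlier results of these data known.

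Counts were filtered (filterByExpr), scaled by TMM and tested with edgeR 4.0.16 in R 4.3.3 (quasi-likelihood F-test, terms for group and sex, all 13 libraries, Benjamini-Hochberg adjustment over 13831 genes). A 95% interval is the log2 fold change plus or minus the t quantile times its standard error. CPM are scaled by TMM, and log2 CPM have a prior count of 2. Summed counts per library ran from 35360991 to 42784362 for controls, from 37848305 to 51008737 for depleted and from 39633635 to 46228433 for hepatectomised livers. A count of 0 allows up to 3 counts, or 0.0588 to 0.0848 CPM, which covers counting error only. Levels between genes are compared per kilobase of exon bases, with all exons of a gene counted, so their order depends on the exons annotated. Replicates differed by more than sampling noise in every group, with a lowest median chi-square of 4.6 between 2 libraries where copies would give 0.45.

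All 36 genes are named, by role. Values in every depleted and hepatectomised library, and the lowest, median and highest of the 6 controls, are given for the gene of each role with the smallest adjusted p in depleted livers, the smallest after hepatectomy and the highest level per kilobase. Of further ribosome biogenesis factors the 3 largest called rises and falls are named, and of the Myc network all called genes and Myc. Alternatives were no sex term, the libraries of 2 groups alone, DESeq2 1.42.0 (its size factors, and its Wald test), library size alone, limma-voom (limma 3.58.1), no filter, the replicate number as a block, 1 sex alone and each library left out. Tested on simulated data for the depleted comparison (13642 genes, 200 changed), the script recovered 79% of 4-fold and 47% of 2-fold changes, with 1 false call among 127. The 200 genes were drawn at random from all levels, whereas 33.9% of tested genes were called in the real comparison. These shares are therefore not the power for the 36 genes.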

Additional observations from a re-analysis of the deposited data

Results flagged for a closer look

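The 6 control and the 4 depleted livers were examined for the log2 CPM of each of the 36 genes and for the mean over these genes, 74 sets of values in all. In 3 of them 1 liver stood apart from the others, by the ratio of its gap from the nearest liver to the whole range of the group (Dixon's 95% limit). Chance gives about 1 in 20, or 3.7 of 74. For Polr1a, depleted replicate 2 stood at 4.85 and the nearest depleted liver at 4.46, a ratio of 0.836. For Gar1, depleted replicate 4 stood at 3.11 and the nearest at 2.45, a ratio of 0.885. For Npm1, control replicate 4 stood at 6.52 and the nearest control at 6.91, a ratio of 0.646.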

How the results depend on the processing

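In depleted against control livers, 1 of 36 genes was called higher (Tsr1) with no sex term, with library size alone and by DESeq2, and 0 lower with library size alone, with the replicate block and in females alone, where 2695 genes were called in all against 4692. With each library left out, 0 to 1 were called higher and 0 to 1 lower, the median was -0.05 to 0.09 and 2960 (without depleted replicate 3) to 4817 genes were called. After hepatectomy, 0 were called higher with 2 groups alone, library size alone, limma-voom, the block and males alone, 2 by DESeq2 (Rrs1, Nop16), and 0 lower with 2 groups alone, no filter, the block and males alone. There, 2192 genes were called with library size alone (median of the 36 genes -0.12), 1939 by DESeq2, 632 with the block and 613 in males, against 1164. With each library left out, 0 to 3 were called higher (3 without hepatectomised replicate 1) and 0 lower, the median was -0.01 to 0.18 and 483 (without hepatectomised replicate 2) to 1331 genes were called, with 692 and 742 without control replicates 1 and 2. Between depleted and hepatectomised livers, 1 was called lower with no sex term (Nop16) and with the block (Nhp2), 2 higher with library size alone (Ddx21, Pes1; median 0.25), and 2105 genes were called with 2 groups alone, against 3236. With each library left out, 0 to 2 were called lower (2 without depleted replicate 4 or hepatectomised replicate 1) and 0 higher, the median was -0.23 to 0.04 and 1709 (without depleted replicate 3) to 3850 genes were called. The cause was not tested. Of 1872 values of single genes, 1825 kept their side of the threshold (211 of them changed sign with no call in either fit), 15 gained a call and 32 lost one.

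Once sex was fitted, the deviations of same-numbered livers had r from -0.10 to 0.42 for depleted and control, -0.19 to 0.08 for hepatectomised and control and 0.04 to 0.27 for depleted and hepatectomised livers, against -0.46 to 0.28, -0.48 to 0.36 and -0.32 to 0.16 for livers of different numbers. Replicate 3 gave the highest r of the first and last of these comparisons (0.42 and 0.27). Since r was not over 0.1 in every pair once sex was fitted, the numbers were not taken as pairs. With group alone fitted, same-numbered hepatectomised and control livers had r from 0.11 to 0.52, and all 3 of these pairs were of the same sex. Such livers of different numbers had r from -0.48 to 0.47. In the other 2 comparisons same-numbered livers then had r from -0.34 to 0.07 (depleted and control) and -0.35 to 0 (depleted and hepatectomised). With 3 or 4 livers in the smaller group and a biological coefficient of variation of 31.4%, common to all tested genes, many changes under 2-fold would not be called. For the 36 genes the median SE of the log2 fold change against control was 0.17 in depleted and 0.18 in hepatectomised livers. Over all tested genes it was 0.21 and 0.23.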

Other observations

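Genes of cytosolic ribosomal proteins, the protein parts of the ribosome itself, lay slightly above control after hepatectomy. Of 79 such genes 78 had a log2 fold change above 0, with a median of 0.28, but 1 was called, against 8.42% of all tested genes. An unadjusted p under 0.05 was reached by 24 (30.4%), against 24.3% of all tested genes. With library size alone 58 were above 0 and the median was 0.07, while the median of all genes moved from -0.02 to -0.24, so that the list lay 0.30 above it with TMM and 0.31 with library size alone. In depleted livers 2 were called higher and 1 lower (3.8%, against 33.9% of all tested genes), with a median of 0.06. Between depleted and hepatectomised livers 0 were called higher and 3 lower (3.8%, against 23.4% of all tested genes), with a median of -0.24. That median became 0.09 with library size alone, where the median of all genes moved from -0.05 to 0.27, and the list lay at -0.19 and -0.18 from it.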
